A study of Homo sapiens with 12 samples.

Results

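The genes described are 10 regulators of mitochondrial apoptosis from the BCL2 family, chosen by name from the 61552 genes of the count table: the pro-survival genes BCL2, BCL2L1 and MCL1, the effectors BAX and BAK1, and the BH3-only genes BID, BAD, BCL2L11, BBC3 and PMAIP1. All 10 passed the filter on low counts. Human neuroblastoma cells, from a tumour of sympathetic nerve precursors, had been cultured overnight with or without ML210 before their mRNA was sequenced. ML210 binds and inhibits GPX4, the enzyme that detoxifies lipid peroxides in membranes, and it can set off ferroptosis, a form of cell death that is distinct from apoptosis. The 4 groups, of 3 libraries each, were the controls and the ML210 libraries of each line, labelled SK-N-AS or SK-N-BE(2), with the genotype given as WT throughout. The design calls SK-N-BE(2) MYCN-amplified and SK-N-AS non-amplified, so each status was represented by 1 established line, and the effect of amplification cannot be told apart from that of the line. The dose of ML210 and the vehicle of the controls are not given in sources used here.

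MYCN, which encodes the transcription factor amplified in aggressive neuroblastoma, went against the line labels. It lay between 3458 and 3693 counts scaled to a common library size (CPM) in SK-N-AS-labelled controls and between 0.0837 and 0.221 CPM in the SK-N-BE(2)-labelled ones. The ML210 libraries had the same order, at 3723 to 3933 and 0.0608 to 0.24 CPM. The groups are therefore named below only by their labels, and no direction between them can be assigned to a MYCN status. GPX4 itself, at 260.6 to 282 and 241.1 to 257.4 CPM in the controls, differed with ML210 by -0.12 and -0.08 on the log2 scale labelled SK-N-AS and SK-N-BE(2) and was called in neither. Library totals lay between 54047293 and 83481963 counted reads. A batch label matches the replicate number throughout, and no label says that the libraries of a group are separate cultures, so the p-values speak only to the spread among these libraries. All 12 adrenergic neuroblastoma markers had reads in each group and summed to 9725 to 10220 CPM in SK-N-AS-labelled controls against 1495 to 1912 CPM in the SK-N-BE(2)-labelled ones. With ML210 the sums were 9039 to 9216 and 1267 to 1801 CPM, and 1 of the 12 was called, PHOX2A, which was lower under the second label (128.9 and 79.84 CPM, log2 -0.69, adjusted p = 0.017) and in the average over both labels (-0.48, adjusted p = 0.0189). The 10 mesenchymal markers had the opposite order, with 237.6 to 279.7 and 1416 to 1644 CPM. Of the blood markers, HBB was at 0 in every library, while PTPRC stood at 263.2 to 328.9 CPM in SK-N-BE(2)-labelled controls and at up to 1.63 CPM in the SK-N-AS-labelled ones. Fibroblast markers (5 of 5 with reads) summed to 94.43 to 210.6 and 1797 to 2035 CPM and epithelial markers (5 of 5) to 10.04 to 14.03 and 160.2 to 230.7 CPM in the controls of the 2 labels. COL1A1 (33.32 and 1011 CPM), LUM (28.73 and 524), DCN (8.944 and 216.8) and PDGFRB (90.49 and 155.5) followed the order of the fibroblast sum. The fibroblast marker COL1A2, at most 0.2373 CPM in the controls, was near 0. The epithelial sum was carried by KRT8 and KRT18, while KRT19 had the opposite order (8.496 and 1.926 CPM) and EPCAM (at most 0.2759 CPM) and CDH1 (at most 0.1301 CPM) were near 0 in the controls. The 4 endothelial and 4 Schwann cell markers summed to at most 36.79 and 4.826 CPM. The part of these marker differences in the results below was not tested.

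Apoptosis through mitochondria is decided by contacts among BCL2 family proteins. Pro-survival members hold BAX and BAK1 in check. BH3-only members, made or modified in response to stress, bind the pro-survival members or the effectors directly, and freed BAX and BAK1 then perforate the outer mitochondrial membrane and release cytochrome c. Much of this control acts on the proteins, through binding, phosphorylation, cleavage and turnover, and is not read by mRNA levels. In these bulk libraries, fewer cells of a kind and less RNA per cell cannot be told apart.

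In GENCODE 29 coordinates on GRCh38, the pro-survival genes are BCL2 (ENSG00000171791) on chromosome 18 at 63123346 to 63320128, BCL2L1 (ENSG00000171552) on chromosome 20 at 31664452 to 31723989 and MCL1 (ENSG00000143384) on chromosome 1 at 150574551 to 150579738. The effectors are BAX (ENSG00000087088) on chromosome 19 at 48954815 to 48961798 and BAK1 (ENSG00000030110) on chromosome 6 at 33572547 to 33580293. The BH3-only genes are BID (ENSG00000015475) on chromosome 22 at 17734138 to 17774770, BAD (ENSG00000002330) on chromosome 11 at 64269830 to 64284704, BCL2L11 (ENSG00000153094) on chromosome 2 at 111119378 to 111168447, BBC3 (ENSG00000105327) on chromosome 19 at 47220822 to 47232766 and PMAIP1 (ENSG00000141682) on chromosome 18 at 59899948 to 59904306. All are protein-coding, and the whole gene was counted as 1 feature.

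Upstream sequence is shown for 3 members, because MYC and MYCN proteins bind the E-box CACGTG and the line labels differ widely in both mRNAs. BAX is shown for its E-boxes, and BBC3 and BCL2L11 because they had the largest differences between the control groups in either direction. Each stretch lies within the 250 bases before the first listed RefSeq start of the gene (GRCh38.p14) and runs 5′ to 3′ on the strand of the gene. It leaves out bases that GENCODE 29 places in an exon and has E-boxes in capitals.
BAX: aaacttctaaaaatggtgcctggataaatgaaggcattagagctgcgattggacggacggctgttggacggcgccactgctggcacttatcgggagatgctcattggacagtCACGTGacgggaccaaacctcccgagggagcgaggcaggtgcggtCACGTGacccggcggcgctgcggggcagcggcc
BBC3: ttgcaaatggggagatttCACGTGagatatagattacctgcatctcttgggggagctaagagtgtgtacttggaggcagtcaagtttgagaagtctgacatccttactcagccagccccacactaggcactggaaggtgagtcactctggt
BCL2L11: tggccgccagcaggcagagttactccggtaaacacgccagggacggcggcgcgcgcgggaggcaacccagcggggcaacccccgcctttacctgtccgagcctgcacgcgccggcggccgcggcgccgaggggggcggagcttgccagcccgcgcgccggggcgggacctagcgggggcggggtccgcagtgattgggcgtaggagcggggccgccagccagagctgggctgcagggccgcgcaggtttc
The BAX stretch is chr19:48954625-48954814 on the plus strand. BBC3 is chr19:47232767-47232917 on the minus strand, and BCL2L11 is chr2:111120664-111120913 on the plus strand. By GENCODE 29 the BCL2L11 stretch lies inside the gene, past its start at 111119378 and outside its exons. RefSeq sequence was matched for 9 of the 10 genes. CACGTG, which reads the same on both strands, was found in 2 of these 9 windows of 250 bases and in 6.34% of all 35116 windows of this length. BAX held 4 matches, beginning 138, 93, 45 and 14 bases before the start, of which the first 2 are shown, and 5 of the 35116 windows held at least 4. BBC3 held 1 match, 232 bases before the start. A match is a description of the letters and not evidence of binding.

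Levels of different genes were compared as CPM per kilobase of annotated exon. MCL1 was the highest of the 10 in every group, with 58.98 ± 0.775 (SD, n = 3) in SK-N-AS-labelled controls and 79 ± 1.82 (SD, n = 3) in the SK-N-BE(2)-labelled ones. BAX followed, at 30.12 ± 1.39 and 30.9 ± 0.95 CPM per kilobase (SD, n = 3 each). BID, at 27.34 ± 0.884 and 18.62 ± 2.36, and BAK1, at 19.14 ± 1.93 and 16.73 ± 1.29 CPM per kilobase (SD, n = 3 each), came next. Their ranges were separate labelled SK-N-AS and overlapped labelled SK-N-BE(2), in controls and ML210 libraries alike. The lower part of the order depended on the line label. Labelled SK-N-AS it ran BCL2L1, PMAIP1, BAD, BCL2, BCL2L11 and BBC3, and PMAIP1 and BAD overlapped in the controls. Labelled SK-N-BE(2), BAD stood above BCL2L1, and BBC3 stood above BCL2L11. BBC3 was the lowest member in SK-N-AS-labelled controls at 1.312 ± 0.264 CPM per kilobase (SD, n = 3), and BCL2L11 in the SK-N-BE(2)-labelled ones at 1.65 ± 0.168 (SD, n = 3). With the longest transcript as the length, BAX and MCL1 changed places in the ML210 libraries labelled SK-N-AS, at 65.14 and 60.15 CPM per kilobase. BAD then stood above PMAIP1 in both SK-N-AS-labelled groups, BCL2 above PMAIP1 in both groups of the other label, and BAD (17.4) above BAK1 (16.73) in the SK-N-BE(2)-labelled controls. Depth was ample for all 10 genes, from 246 reads for BBC3 in SK-N-AS-labelled control replicate 2 to 24974 for MCL1 in SK-N-BE(2)-labelled control replicate 3.

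**Figure D1:**
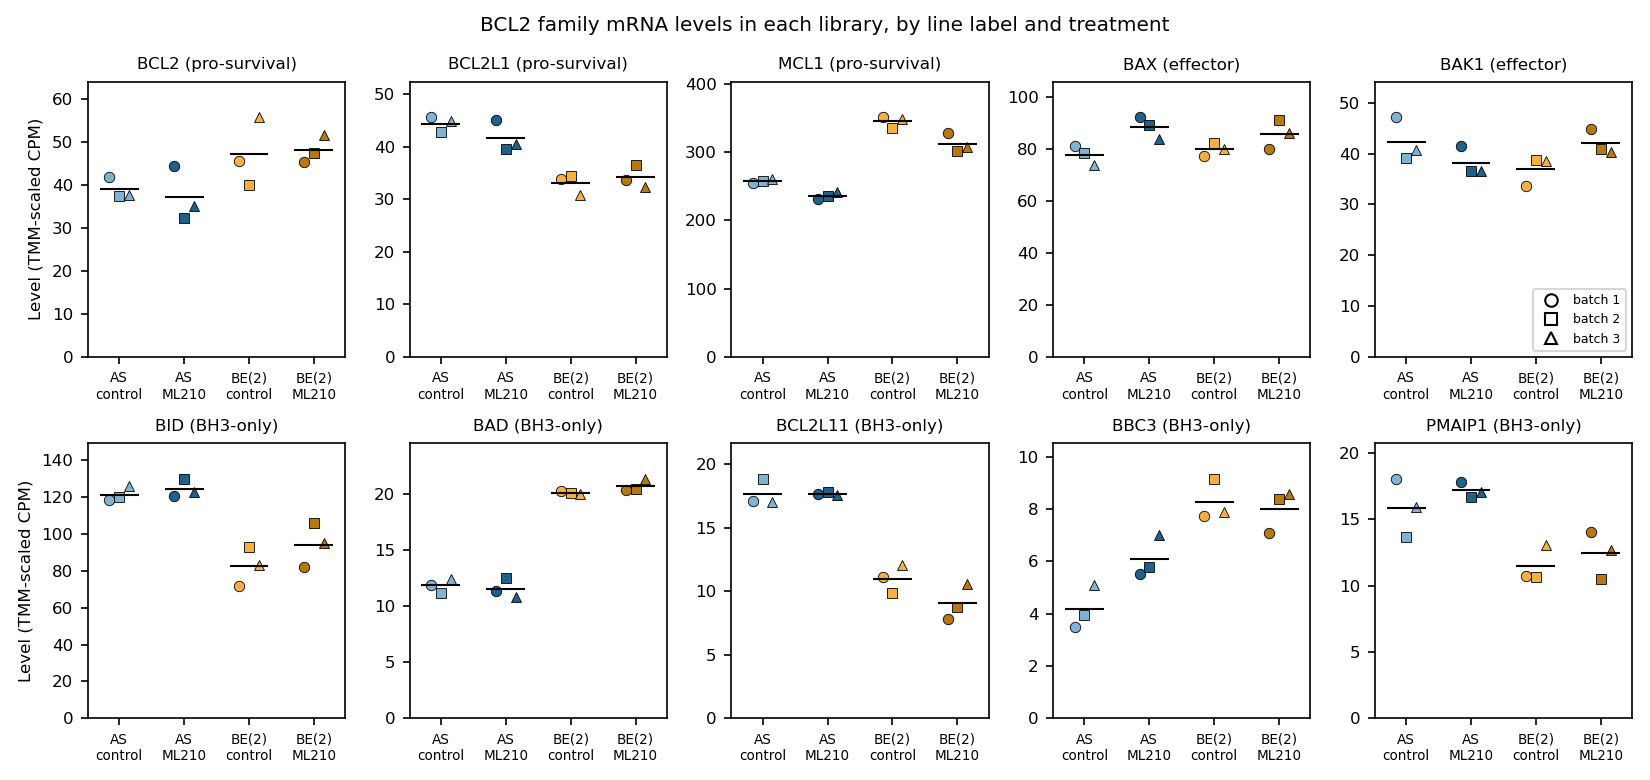
Level of each of the 10 genes in the 12 libraries, in CPM on axes that start at 0, with line label and treatment along the horizontal axis. Each symbol is 1 library, its shape gives the batch and the bar is the mean of 3. MCL1, BAD and, narrowly, BBC3 stand higher and BCL2L1, BID and BCL2L11 lower in every library labelled SK-N-BE(2). The ranges of control and ML210 libraries are separate for 3 of 10 genes under each label, among them BBC3 labelled SK-N-AS.

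The comparison of control with ML210 libraries asks whether overnight GPX4 inhibition moved these mRNAs. No member was called at an adjusted p under 0.05 in edgeR's quasi-likelihood test: 0 of 10 labelled SK-N-AS, where 0.0296% of the 20304 genes tested were called, and 0 of 10 labelled SK-N-BE(2), where 1.37% were. At an unadjusted p under 0.05 there were 3 and 2 members, beside 6.89% and 13.5% of all genes. DESeq2 called 0 of 10 under each label too. The median absolute log2 difference of the members was 0.102 and 0.109, and that of all genes 0.122 and 0.149. Differences were bounded rather than shown to be absent: the widest 95% half-interval was 0.35 on the log2 scale, for BBC3.

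Among the pro-survival genes, MCL1 encodes a short-lived protein that binds BAK1 and many BH3-only proteins. It stood at 254.3, 257.9 and 261.1 CPM in SK-N-AS-labelled control replicates 1, 2 and 3 and at 231.6, 235.8 and 242.1 CPM with ML210. Labelled SK-N-BE(2) it stood at 351.1, 336.2 and 348.5 CPM in controls and at 327.7, 301.8 and 307.7 CPM with ML210. Every ML210 library was below every control of its label, a pattern that 1.79% of all genes had under both labels. The log2 differences were -0.12 (SE 0.0479, adjusted p = 0.649) and -0.14 (SE 0.0479, adjusted p = 0.173), about 0.917 and 0.905 times the control. Averaged over both labels the difference was -0.13 (SE 0.0339, adjusted p = 0.0742 in edgeR, with 1.23% of genes called in this average and 0 of 10 members). With the batch as a replicate block within each label the adjusted p of that average was 0.0252, and in DESeq2 it was 0.0129. Neither label alone gave a call for MCL1 in any fit.

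BCL2, which gave the family its name, and BCL2L1, which encodes the long pro-survival protein BCL-XL and a short splice form that opposes it, were not called either. BCL2 was 41.9, 37.45 and 37.62 CPM in SK-N-AS-labelled controls against 44.38, 32.17 and 34.95 with ML210. The SK-N-BE(2)-labelled values were 45.58, 39.92 and 55.66 CPM against 45.39, 47.28 and 51.49. The ranges overlapped under both labels, and the log2 differences were -0.07 (95% interval -0.35 to 0.21) and 0.03 (-0.25 to 0.31). BCL2L1 was 45.55, 42.78 and 44.83 CPM in SK-N-AS-labelled controls against 45.1, 39.49 and 40.53 with ML210, and 33.88, 34.32 and 30.87 against 33.55, 36.44 and 32.37 CPM labelled SK-N-BE(2). These ranges overlapped as well, with log2 differences of -0.09 and 0.05. Gene counts do not separate the BCL2L1 splice forms.

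Of the effectors, BAX, which moves from the cytosol to mitochondria when active, was higher with ML210 in all 6 same-batch pairs. The share of all genes that were so was not computed, so this count has no background to be read against. BAX stood at 81.07, 78.68 and 73.99 CPM in SK-N-AS-labelled controls and at 92.27, 89.22 and 83.88 with ML210. Labelled SK-N-BE(2) the values were 77.34, 82.25 and 80.25 against 80.27, 91.3 and 86.1 CPM. The ranges were separate under the first label and overlapped under the second. The log2 differences were 0.18 (SE 0.0619, adjusted p = 0.587) and 0.1 (SE 0.0618, adjusted p = 0.53), and their average was 0.14 (adjusted p = 0.133, or 0.0237 with the replicate block within each label). BAK1, which resides on mitochondria and is held there by MCL1 and BCL-XL, had values on opposite sides. It was 47.15, 39.08 and 40.76 CPM in SK-N-AS-labelled controls and 41.5, 36.54 and 36.58 with ML210, lower in 3 of 3 pairs with overlapping ranges. Labelled SK-N-BE(2) it was 33.74, 38.77 and 38.53 against 44.86, 40.85 and 40.35 CPM, higher in 3 of 3 pairs with separate ranges. The responses, -0.15 and 0.18, differed by 0.33 (SE 0.124, adjusted p = 0.621). That difference of responses was called for 0 of 10 members and for 0.00493% of all genes, and at an unadjusted p under 0.05 for 2 members and 7.16% of all genes. A processed copy, BAK1P1 on chromosome 20, had 660 reads over all libraries against 31544 for BAK1.

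BBC3, which encodes PUMA, a stress-induced protein that binds all the pro-survival proteins, had the largest difference of any member with ML210 and the fewest reads. It stood at 3.473, 3.94 and 5.103 CPM in SK-N-AS-labelled controls and at 5.51, 5.767 and 7.012 with ML210. The ranges did not overlap, and each ML210 library was above the control of its batch. The fitted ratio was 1.46 (log2 0.55, SE 0.162, adjusted p = 0.497). Labelled SK-N-BE(2) the values were 7.725, 9.145 and 7.885 CPM in controls and 7.077, 8.37 and 8.559 with ML210, with overlapping ranges and a log2 difference of -0.04 (95% interval -0.39 to 0.3). The difference of these responses was -0.59 (SE 0.227, adjusted p = 0.621).

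BCL2L11 encodes BIM, a BH3-only protein that binds every pro-survival member. With ML210 it stayed at 17.65, 17.8 and 17.53 CPM labelled SK-N-AS, beside 17.12, 18.82 and 16.97 in controls. Labelled SK-N-BE(2) it was 11.08, 9.821 and 12.06 CPM in controls and 7.791, 8.788 and 10.52 with ML210. Each ML210 library was below its batch's control, but the ranges overlapped. The log2 difference was -0.28 (SE 0.115, adjusted p = 0.285), and leaving out ML210 replicate 3 of that label made it -0.43 with an adjusted p of 0.037, while the number of genes called in all went from 279 to 1242. MIR4435-2HG, a long noncoding RNA gene on the opposite strand, shares 727 exon bases with BCL2L11, which is 10.92% of its exons. Its level labelled SK-N-BE(2) was 16.62 to 23.77 CPM in controls and 24.9 to 36.6 CPM with ML210. As the strand setting of the counting is not given here, reads of the shared bases cannot be assigned to either gene, and their part in the BCL2L11 difference was not tested.

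The other 3 BH3-only genes had small differences. BID encodes a protein that caspase-8 cleaves into an activator of BAX and BAK1, and so links death receptors to mitochondria. It was 118.6, 120 and 126 CPM in SK-N-AS-labelled controls against 120.7, 130 and 122.7 with ML210. Labelled SK-N-BE(2) it was 72.07, 93.03 and 83.25 against 81.98, 105.8 and 94.94 CPM, higher in every batch while batches spread widely and the ranges overlapped. The log2 difference there was 0.19 (SE 0.0953, adjusted p = 0.428), and with the replicate block within each label it kept its size with an adjusted p of 0.0343, where 1386 in place of 279 genes were called in all. BAD, a BH3-only protein silenced by survival-factor phosphorylation, was 11.95, 11.16 and 12.48 CPM against 11.39, 12.52 and 10.79 labelled SK-N-AS, with overlapping ranges. It was 20.29, 20.1 and 20.03 against 20.38, 20.5 and 21.38 CPM labelled SK-N-BE(2), where ranges were separate but the log2 difference was only 0.04. PMAIP1 encodes NOXA, which neutralizes MCL1. It was 18.03, 13.66 and 15.93 CPM in SK-N-AS-labelled controls against 17.81, 16.68 and 17.05 with ML210, and 10.71, 10.66 and 13.08 against 14.05, 10.52 and 12.71 CPM labelled SK-N-BE(2). Its ranges overlapped under both labels, and both log2 differences were 0.11. Separate ranges with ML210 were thus seen for 3 of 10 members labelled SK-N-AS (MCL1, BAX and BBC3) beside 14.9% of all genes, and for 3 of 10 labelled SK-N-BE(2) (MCL1, BAK1 and BAD) beside 17.4%.

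**Figure D2:**
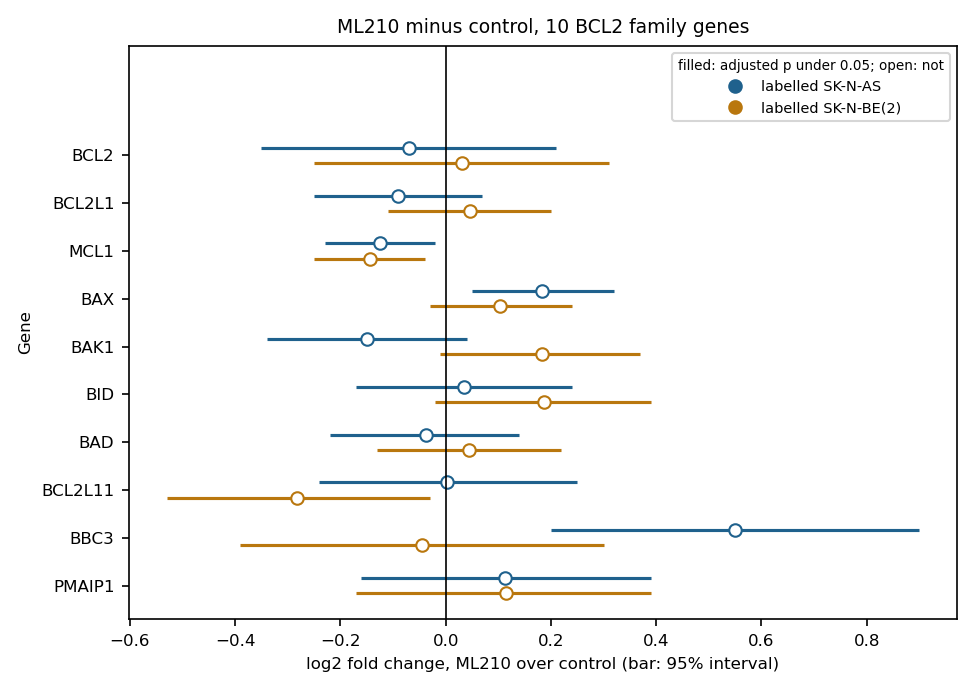
Fitted log2 fold change of ML210 over control for each gene (horizontal axis), by line label, with 95% intervals as bars and open circles for an adjusted p of 0.05 or more. All 20 circles are open, and BBC3 labelled SK-N-AS lies farthest from 0 at 0.55.

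The balance within the family was described as the sum of BCL2, BCL2L1 and MCL1 over the sum of BAX and BAK1, in CPM per kilobase, a ratio that does not depend on library scaling. It was 1.43, 1.56 and 1.63 in SK-N-AS-labelled controls and 1.29, 1.34 and 1.44 with ML210. With the label SK-N-BE(2) it was 2.09, 1.84 and 1.94 in controls and 1.73, 1.56 and 1.64 with ML210. The ratio was lower with ML210 in 6 of 6 same-batch pairs. MCL1 was lower and BAX higher in the same 6 pairs, so this count is not separate from theirs, and it was not tested. The ranges of the ratio just met under the first label and were separate under the second, and SK-N-BE(2)-labelled controls were above all SK-N-AS-labelled controls. The pro-survival genes made up 43.5% to 45% of the summed level of the 10 genes in SK-N-AS-labelled controls and 49.9% to 53.5% in the SK-N-BE(2)-labelled ones, most of it MCL1. The BH3-only genes made up 26.2% to 27.5% and 20.9% to 23%. The summed level itself, 170.3 ± 3.3 and 180.4 ± 3.33 CPM per kilobase in the controls (SD, n = 3 each), was higher with ML210 in 3 and lower in 3 of the 6 pairs. A ratio of mRNA levels does not give the ratio of the proteins.

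**Figure D3:**
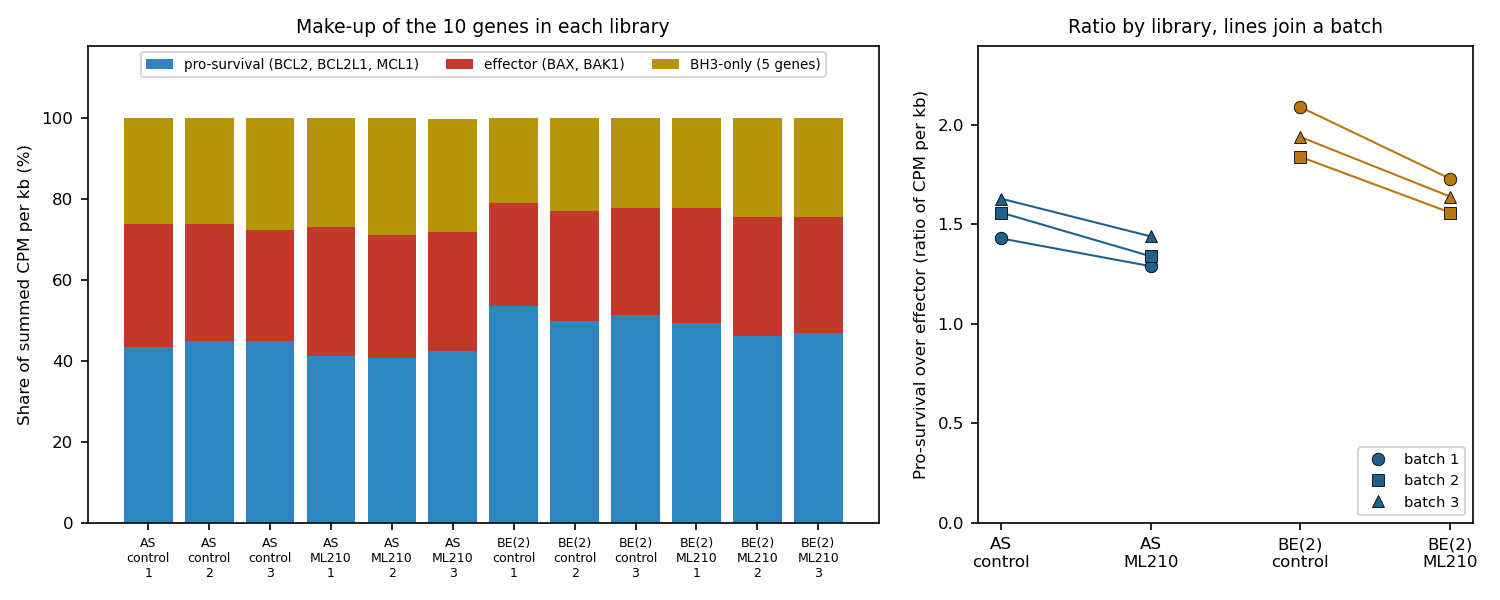
Left, share of the summed CPM per kilobase of the 10 genes taken by pro-survival, effector and BH3-only genes in each library, in percent. Right, ratio of pro-survival to effector level in each library, with lines joining control and ML210 libraries of a batch, all 6 of which slope down.

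Between the line labels the family differed more. In the controls 7 of 10 members were called, 3 higher and 4 lower labelled SK-N-BE(2), beside 69.2% of all genes (33.9% higher and 35.2% lower), so the share was near that of genes at large. The ranges were separate for 8 of 10 members and for 74.0% of all genes. The median absolute log2 difference was 0.447 for the members, among which BBC3 reached 0.99, and 0.809 for all genes. In the ML210 libraries, which are other libraries of the same cells, 8 of 10 were called beside 69.0% of all genes, 4 higher (34.6% of all genes) and 4 lower (34.5%), and the medians were 0.397 and 0.802.

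BBC3, BAD and MCL1 were higher in SK-N-BE(2)-labelled controls. The BBC3 means were 4.172 ± 0.839 and 8.252 ± 0.778 CPM (SD, n = 3 each), a fitted ratio of 1.98 (log2 0.99, SE 0.162, adjusted p = 8.97e-05). In the ML210 libraries it was 0.39 on the log2 scale (adjusted p = 0.0424), a call that 6 of the 12 fits without 1 library lost, with adjusted p from 0.0504 to 0.133. Those libraries were SK-N-AS control replicate 2, SK-N-AS ML210 replicates 1 and 2, SK-N-BE(2) control replicate 3 and SK-N-BE(2) ML210 replicates 2 and 3, by their labels. BAD was at 11.86 ± 0.664 and 20.14 ± 0.135 CPM (SD, n = 3 each; log2 0.76, SE 0.0829, adjusted p = 1.6e-06), and at 0.84 in the ML210 libraries. BAD shares 404 exon bases, 23.65% of its exons, with GPR137 on the opposite strand, which differed the same way, from 24.61 to 59.13 CPM in the controls. Since the strand setting of the counting is not given in sources used here, reads of the shared bases cannot be assigned to either gene. MCL1 was 257.8 ± 3.4 and 345.3 ± 7.96 CPM (SD, n = 3 each), a log2 difference of 0.42 (SE 0.048, adjusted p = 2.55e-06) that was 0.4 in the ML210 libraries.

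BCL2L11, BID, PMAIP1 and BCL2L1 were lower in SK-N-BE(2)-labelled controls. BCL2L11 had the largest difference, -0.68 on the log2 scale (SE 0.114, adjusted p = 0.000108), and -0.97 in the ML210 libraries. BID differed by -0.55 (SE 0.0955, adjusted p = 0.00015), with means of 121.5 ± 3.93 and 82.78 ± 10.5 CPM (SD, n = 3 each), and by -0.4 in the ML210 libraries. PMAIP1 differed by -0.47 in both comparisons (adjusted p = 0.00546 and 0.0055). BCL2L1 differed by -0.43 (SE 0.0733, adjusted p = 0.000134) and, in the ML210 libraries, by -0.29 (adjusted p = 0.00297). An antisense gene that covers 42.97% of its exons, ABALON, had 0 reads counted. As the strand setting is not given, this does not show how reads of the shared bases were counted. The BH3-only genes were thus split, BBC3 and BAD being higher and BID, BCL2L11 and PMAIP1 lower.

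BCL2, BAX and BAK1 were not called in the controls. BCL2 was 0.27 higher (95% interval -0.01 to 0.55, adjusted p = 0.0782). It was called in the ML210 libraries at 0.37 (adjusted p = 0.0211), with adjusted p from 0.0742 to 0.0938 without ML210 replicate 2 or 3 labelled SK-N-AS or ML210 replicate 3 labelled SK-N-BE(2). BAX differed by 0.04 (95% interval -0.1 to 0.17) and, in the ML210 libraries, by -0.04 (-0.18 to 0.09). BAK1 was 0.19 lower in the controls (log2 -0.19, adjusted p = 0.0639), with separate ranges, and at 0.14 in the ML210 libraries (adjusted p = 0.179). With the replicate block within each label, which takes the spread between batches out of the error, BCL2 (adjusted p = 0.00833) and BAK1 (adjusted p = 0.0287) passed in the controls. With 1 batch term shared by both labels they did not. BCL2 also passed with only the control libraries in the fit (adjusted p = 0.039), without SK-N-AS ML210 replicate 1 (0.0373) without SK-N-BE(2) control replicate 2 (0.0168) and with library totals (0.00392), and BAK1 without SK-N-AS control replicate 2 (0.0338).

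The directions between labels are relative to the middle of all genes, which TMM places near 0. With library totals in its place the median of all genes moved from -0.01 to 0.24 in the controls and from 0.02 to 0.22 in the ML210 libraries, and 60.7% in place of 49.1% of called genes were higher in the controls (59.3% in place of 50.1% in the ML210 libraries). The members shifted with it. BCL2 and BAX were then called higher and PMAIP1 was no longer called in the controls, which made 5 higher and 3 lower, and BAK1 was at 0.05. In the ML210 libraries 6 were higher and 1, BCL2L11, was lower, with BAX at 0.16.

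**Figure D4:**
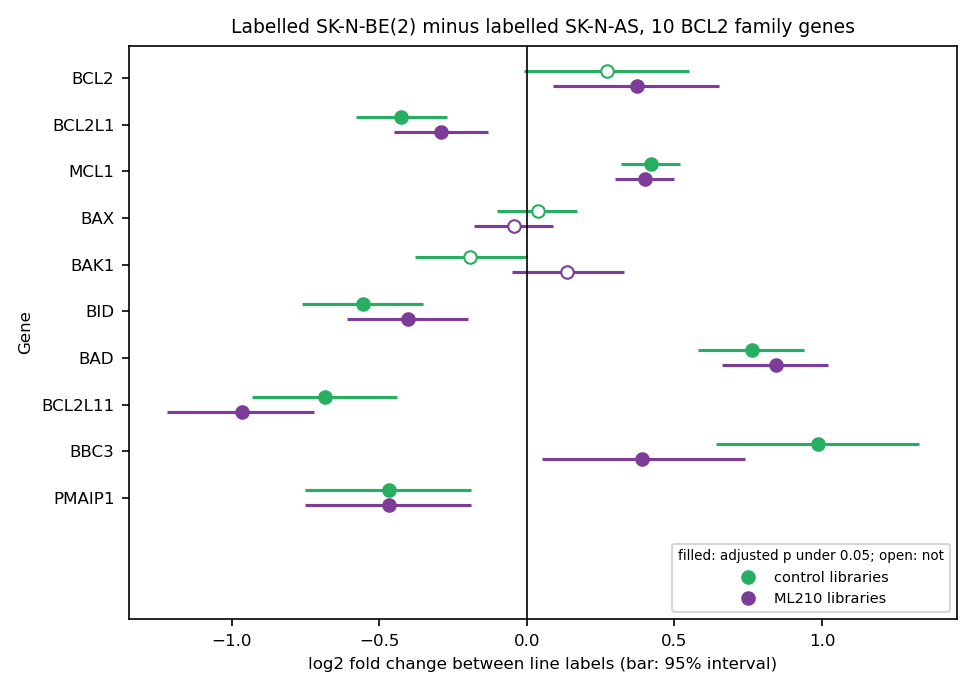
Fitted log2 difference between line labels for each gene (horizontal axis; positive is higher labelled SK-N-BE(2)), in control and in ML210 libraries, with 95% intervals as bars and filled circles for an adjusted p under 0.05. BBC3, BAD and MCL1 lie to the right and BCL2L1, BID, BCL2L11 and PMAIP1 to the left in both comparisons, with BAX at 0.04 and -0.04.

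The other genes of the pathway were taken from 6 lists, whose counts stand beside 69.2% of all genes called between the controls, 33.9% higher and 35.2% lower. Among 13 further BCL2 family genes, 10 were tested, and 7 were called, a share near that of all genes, with 4 higher and 3 lower in SK-N-BE(2)-labelled controls. BOK, an effector-like relative of BAX and BAK1, was at 3.152 and 23.52 CPM (log2 2.9), BCL2L12 at 7.307 and 44.08 CPM (2.59), and the BH3-only gene BMF at 4.52 and 9.708 CPM (1.1). BNIP3, which acts in mitophagy, was lower at 103.9 and 66.22 CPM (-0.65, adjusted p = 0.0164). The median absolute log2 difference of this list was 0.877, against 0.447 for the 10 genes above. All 13 genes of the apoptosome and caspases were called, 8 higher and 5 lower, in a comparison that called 69.2% of all genes. The initiator caspases CASP8, at 3.331 and 37.97 CPM (3.52), and CASP9, at 2.361 and 15.75 CPM (2.74), were among the higher, with CASP6 (5.69) and CASP10 (4.73).

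Death receptors, their ligands and adaptors, which feed into BID through caspase-8, were called higher labelled SK-N-BE(2) in 9 of 10 tested genes, beside 33.9% of all genes, and lower in none. Of these 9, TNF and TNFSF10 are ligands with 0 reads in SK-N-AS-labelled controls and at most 0.3311 and 0.4466 CPM in the other controls. TNFRSF1A was at 5.998 and 153.6 CPM (4.69), the TRAIL receptor TNFRSF10B at 5.891 and 92.87 CPM (3.98), and FAS at 0.55 and 3.874 CPM (2.81), while the adaptor TRADD differed by 2.18. Of 7 tested inhibitors of apoptosis, 2 were higher, BIRC3 (2.21) and the caspase-8 inhibitor CFLAR (0.71), and 1 lower, BIRC2 (-0.83). Of 12 transcriptional regulators of the family, 2 were higher and 9 lower. MYC, at 2.069 and 86.52 CPM (5.38), and FOXO1, an activator of BCL2L11 transcription, at 0.1829 and 5.841 CPM (5.01), were the higher ones. MYCN (-14.38) was among the lower ones, as was FOXO3, named here beside FOXO1, at 62.47 and 34.78 CPM (-0.84). Of 11 genes for turnover and mitochondrial partners, 2 were higher and 7 lower, among them BAG1 (-1.11), VDAC3 (-0.97), the fission GTPase DNM1L (-0.78) and VDAC2, a mitochondrial partner of BAK1 (-0.74). In the ML210 libraries the counts of higher and lower genes in these lists, in the order given, were 4 and 1, 7 and 5, 9 and 0, 2 and 1, 2 and 9, and 3 and 7.

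**Figure D5:**
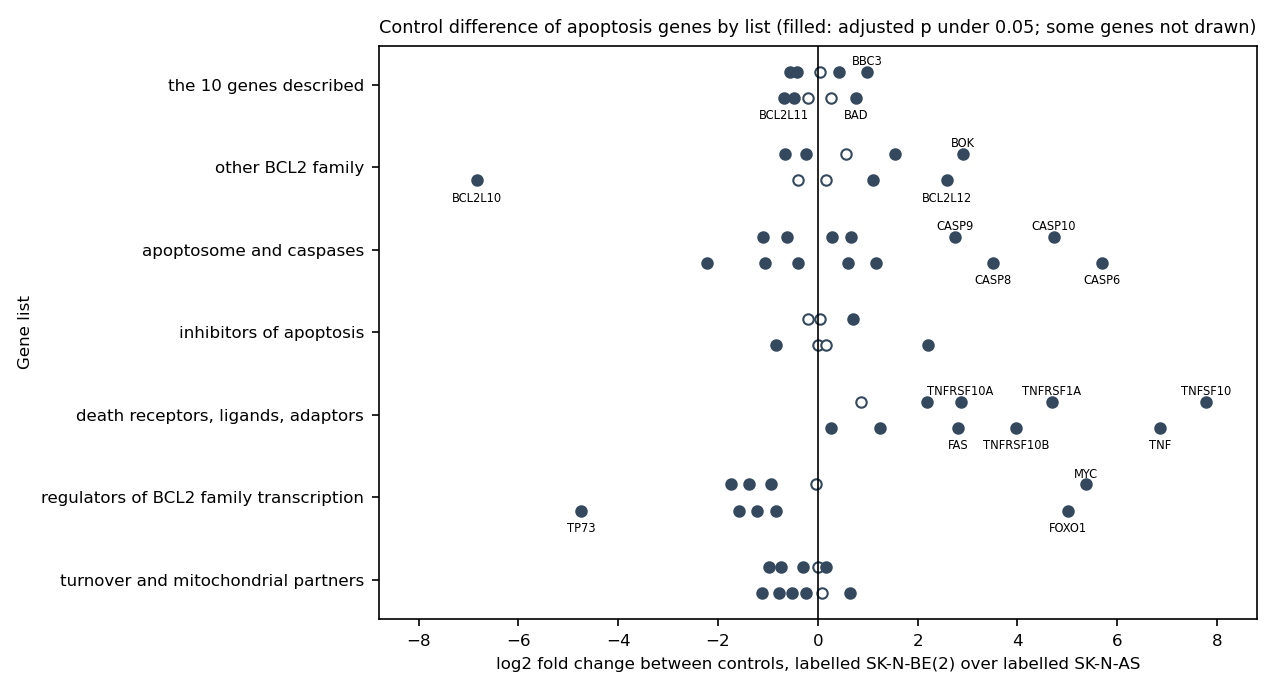
Fitted log2 difference between the controls (horizontal axis; positive is higher labelled SK-N-BE(2)) for tested genes, by list, filled at an adjusted p under 0.05. The 10 genes described lie between -0.68 and 0.99, while 9 of 10 death receptor, ligand and adaptor genes are filled to the right of 0; values of genes with few or no reads under 1 label, such as BCL2L10, TNF and TNFSF10, depend on the prior count.

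With ML210 no gene of the 6 lists was called under either label, in the average or in the difference of responses. The smallest unadjusted p of the further family members belonged to BOK labelled SK-N-AS, at 3.152 and 2.066 CPM (log2 -0.61, adjusted p = 0.338), and to BCL2L13, a mitochondrial outer membrane protein, labelled SK-N-BE(2), at 112.8 and 140.6 CPM (0.32, adjusted p = 0.103). Among the regulators it was JUN in both cases. JUN was 156.3 and 118.8 CPM labelled SK-N-AS (-0.4, adjusted p = 0.517). With the other label it was 60.62 and 82.58 CPM (0.45, adjusted p = 0.0939). Its responses differed by 0.84 (adjusted p = 0.413). The inhibitor BIRC5, which encodes survivin, was at -0.2 and -0.25, an average of -0.22 (adjusted p = 0.0813).

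The genes most like 3 of the members over the 12 libraries were found among all 20304 tested, by the root mean square difference of centred log2 CPM. APMAP (0.0473), IST1 (0.0499) and GRWD1 (0.0501) were nearest to BCL2L1. DXO (0.0684), SURF2 (0.0685) and EMG1 (0.0731) were nearest to BAK1, and ATP6V1G2 (0.127), SCD5 (0.149) and C14orf28 (0.161) to BBC3. The spread of the members themselves about their mean was 0.195, 0.125 and 0.429 on the same scale. Between the controls the 3 genes nearest to BBC3 differed by 0.77, 0.93 and 0.77 on the log2 scale, those nearest to BCL2L1 by -0.34, -0.4 and -0.38, and those nearest to BAK1 by -0.16, -0.07 and -0.22. The genes were picked for likeness over these same libraries, so their control differences follow from the choice and are no further result.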

How the data were processed

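Values were deposited by the authors as raw counts per gene for 12 libraries. Per the submitters' processing notes, FastQC, Trimmomatic 1.4, HISAT2 2.2.1 and featureCounts 2.0.5 were used with GRCh38 (hg38). Per the labels' protocols the libraries came from a stranded mRNA kit. The strand setting of the counting, the handling of multi-mapping reads, the annotation and whether reads or pairs were counted are not given in sources used here.

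These counts entered edgeR 4.0.16 (R 4.3.3): filterByExpr by group (20304 of 61552 genes), TMM scaling, and 1 fit of all 12 libraries by group (8 residual degrees of freedom, common dispersion 0.0223). Tests were two-sided robust quasi-likelihood tests with Benjamini-Hochberg adjustment over the 20304 genes. Genes with an adjusted p under 0.05 were called. Every adjusted p printed comes from this fit, except where DESeq2, a block, library totals, a fit of only some groups or a left-out library is named. The ML210 responses share their controls with the difference between controls, and the average and difference of responses are built from both. CPM were computed from TMM-scaled totals and, for levels between genes, divided by the union of GENCODE 29 exons in kilobases. Symbols came from a table of gene names for 61399 identifiers and from GENCODE 29 for 145. The fit was tested on simulated data.

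The members and lists were chosen with earlier results of these data known. The naming rule took all 10 members, MYCN and GPX4, and, per list and comparison, up to 4 called genes with the largest fold change and a mean log2 CPM of at least 0, or where none was called the gene with the smallest p. A few genes that the rule takes are not reported here. It took the 3 nearest patterns for the member of each class that differed most between the controls.

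Pairing comes from the batch label. Deviations from the group means correlated at 0.357, 0.0677 and 0.121 between same-batch control and ML210 libraries labelled SK-N-AS and at 0.0957, 0.12 and 0.169 labelled SK-N-BE(2), against -0.269 to 0.189 and -0.1 to -0.00693 between different batches of the same label, and -0.0821, -0.00276 and -0.0274 between the controls of both labels. Labelled SK-N-AS, 2 different-batch pairs (0.189 and 0.125) thus lay above the same-batch values of batches 2 and 3. Alternatives were other scaling, no filter, DESeq2 1.42.0, fits of only the groups compared, replicate blocks, each library left out, and other gene lengths.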

Additional observations from a re-analysis of the deposited data

How the results depend on the processing

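The number of genes called with ML210 depended on the settings, and the members were nearly always left uncalled. Labelled SK-N-AS, 6 genes were called, against 33 with no filter, 47 with DESeq2, 21 with only the groups compared, 38 with a replicate block within each label and 3 to 13 without 1 library. Of these calls 83.3% were higher as reported and 71.4% with RLE factors. Labelled SK-N-BE(2), 279 became 556, 753, 51, 1386 and, with 1 block shared by both labels, 455, or 48 to 1242 without 1 library. Of the members, 1 (BID) was called there with the block within each label and 0 to 1 without 1 library. The difference of responses went from 1 gene to 24 with no filter, 39 with DESeq2, 85 with the block within each label and 1 to 156 without 1 library. The average went from 250 to 531, 775, 1240 and 63 to 1006, 142 genes being higher and 108 lower as reported and 237 and 75 with library totals, with 1 member called by DESeq2 and 2 with the block within each label. The replicate block changed no other call of a member than those named here and in the text above.

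Small member differences changed sign, all of them uncalled in the fit reported, and only BAX between the ML210 groups, at 0.158 with library totals, was called after the change (adjusted p = 0.0389). With library totals BAD labelled SK-N-AS became 0.017, BAK1 between controls 0.054, and the averages of BCL2 and BCL2L1 0.009 and 0.008. The PMAIP1 difference of responses, 0.0 as reported, was -0.011 with RLE factors, -0.047 with totals, -0.022 with no filter, -0.01 with DESeq2, and -0.013 and -0.016 with the blocks within and across labels. The BAD average was -0.001 with RLE factors and -0.002 with no filter and with DESeq2. Without 1 library, the ML210 differences labelled SK-N-AS ranged from -0.217 to 0.022 (BCL2), -0.099 to 0.011 (BAD) and -0.025 to 0.05 (BCL2L11). Labelled SK-N-BE(2) they ranged from -0.086 to 0.141 (BCL2), -0.027 to 0.062 (BCL2L1) and -0.117 to 0.025 (BBC3). The difference of responses ranged from -0.028 to 0.247 (BCL2) and -0.118 to 0.098 (PMAIP1), and the average from -0.094 to 0.042 (BCL2), -0.015 to 0.059 (BAK1) and -0.028 to 0.027 (BAD). BAX ranged from -0.001 to 0.081 between controls and from -0.09 to 0.009 between ML210 groups.

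With the longest transcript as length the summed levels were 237, 239, 245 and 249 CPM per kilobase labelled SK-N-AS control and ML210 and SK-N-BE(2) control and ML210. Without any length, the ratio of pro-survival to effector reads was 2.84, 2.49, 3.64 and 3.09 in that order, lower with ML210 in 6 of 6 pairs. The cause of these changes was not tested.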

Other observations

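The level of MCL1 over that of BAX, in CPM per kilobase, was chosen after its values were seen. It was 1.86, 1.94 and 2.09 in SK-N-AS-labelled controls and 1.49, 1.56 and 1.71 with ML210. Labelled SK-N-BE(2) it was 2.69, 2.42 and 2.57 in controls and 2.42, 1.96 and 2.12 with ML210. The ratio was lower with ML210 in 6 of 6 same-batch pairs, and it was not tested. MCL1 was lower and BAX higher in each of these pairs, so the ratio had to be lower in all of them. BCL2 over MCL1, at 0.0535 to 0.0612 and 0.0441 to 0.0593 in the controls of the same labels, overlapped with the ML210 libraries at 0.0507 to 0.0712 and 0.0515 to 0.0622.

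The stress response genes DDIT3, chosen here after its values were seen, and TRIB3 were at 1.791 and 3.062 CPM (DDIT3) and at 38.95 and 51.94 CPM (TRIB3) in control and ML210 libraries labelled SK-N-BE(2). With the label SK-N-AS they were at 5.339 and 5.411 CPM (DDIT3) and 39.72 and 47.5 CPM (TRIB3). The DDIT3 differences were 0.77 (adjusted p = 0.178) and 0.01 (adjusted p = 1.0) on the log2 scale, an average of 0.39 (adjusted p = 0.343), and none was called. DDIT3 encodes CHOP and TRIB3 is one of its targets. The average response of TRIB3 was 0.34 on the log2 scale (SE 0.0956, adjusted p = 0.111 in edgeR), and it was not called. ATF3, in the same list, went the other way, from 16.13 to 12.5 CPM labelled SK-N-AS and 8.468 to 7.709 CPM labelled SK-N-BE(2). Its average response was -0.25 (adjusted p = 0.369 in edgeR), and that of ATF4 was 0.2 (adjusted p = 0.135), neither of them called.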
